A study of Drosophila melanogaster with 4 samples.

Results

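Some neighbourhoods of the *Drosophila* genome held many Abrupt (Ab) ChIP-Seq peaks, and these neighbourhoods are described here. The chromosome arms 2L, 3L, 3R and X of the dm3 assembly (Berkeley Release 5) were divided into fixed 100-kb bins from the first base, and a peak was given to the bin that held its midpoint. A bin was called dense where the *ab* peak list had 20 or more peaks in it. This held for 60 of 980 bins (6.12%), and these 60 bins contained 1809 *scrib-*+*ab* peaks and 1541 *ab* peaks, of 10892 and 8881 peaks in the whole lists. Arm 2R, with 1956 *scrib-*+*ab* peaks and 1655 *ab* peaks, was not binned. The bins were chosen by their *ab* peak counts, so the *ab* counts are given as a description, while the *scrib-*+*ab* counts come from a library that took no part in the choice.

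Ab is a BTB-zinc finger transcription factor: the zinc fingers bind DNA, and the BTB domain mediates contacts with other proteins, among them chromatin regulators. It is known for its roles in the patterning of dendrites and muscle attachments and in the response to the steroid hormone ecdysone. Where a transcription factor occupies many sites in a short stretch, these often lie in the introns and flanks of developmental control genes, whose expression is governed by many separate enhancers. Scribble, the product of *scrib*, is a scaffold protein that maintains apicobasal polarity in epithelia and acts as a tumour suppressor in imaginal discs.

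Chromatin was immunoprecipitated with a polyclonal rabbit antibody against Ab from mosaic eye/antennal imaginal discs, the larval precursors of the eye and antenna, at about day 5 after egg laying. In *scrib-*+*ab* discs, clones homozygous for *scrib1* on an *FRT82B* chromosome overexpressed *ab*. In *ab* discs, clones overexpressed *ab* from the *UAS-ab55* transgene alone. Both genotypes therefore carried the *ab* transgene, clones were made with *ey-FLP*, which is active in the eye/antennal disc, and each disc also held tissue outside the clones. No library from discs without overexpressed *ab* was analysed here, so the occupancy of endogenous Ab was not measured apart from that of the transgene product. Each genotype had 1 ChIP library, pooled from 3 to 6 immunoprecipitations of about 100 discs each, and 1 input library that was not analysed here. With 1 library a genotype no difference between genotypes has a replicate check, no p-value is given, and the exact (Clopper-Pearson) 95% intervals cover counting error over peaks only. The lists analysed here hold positions with a constant score of 1, and neither the read depth of the libraries nor the height of the peaks was used.

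The *scrib-*+*ab* list was crowded in the same bins. The 60 dense bins had 12 to 46 *scrib-*+*ab* peaks (median 30) and 20 to 45 *ab* peaks (median 24), against 0 to 33 (median 6) and 0 to 19 (median 5) in the other 920 bins. The dense bins thus held 20.2% of the *scrib-*+*ab* peaks and 21.3% of the *ab* peaks on these 4 arms. Most peaks, 79.8% and 78.7%, lay in the other bins. Of all bins, 114 of 980 (11.6%) had 20 or more *scrib-*+*ab* peaks, and 54 of the 60 dense bins were among them. The remaining 60 bins with 20 or more *scrib-*+*ab* peaks were not dense by the *ab* list. Across all 980 bins the counts of the lists were related with a Spearman's rho of 0.90, and across the 60 dense bins, where the *ab* range is cut, with a rho of 0.53. These values are descriptions, since neighbouring bins share genes and both lists share the assembly and the caller.

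**Figure D1:**
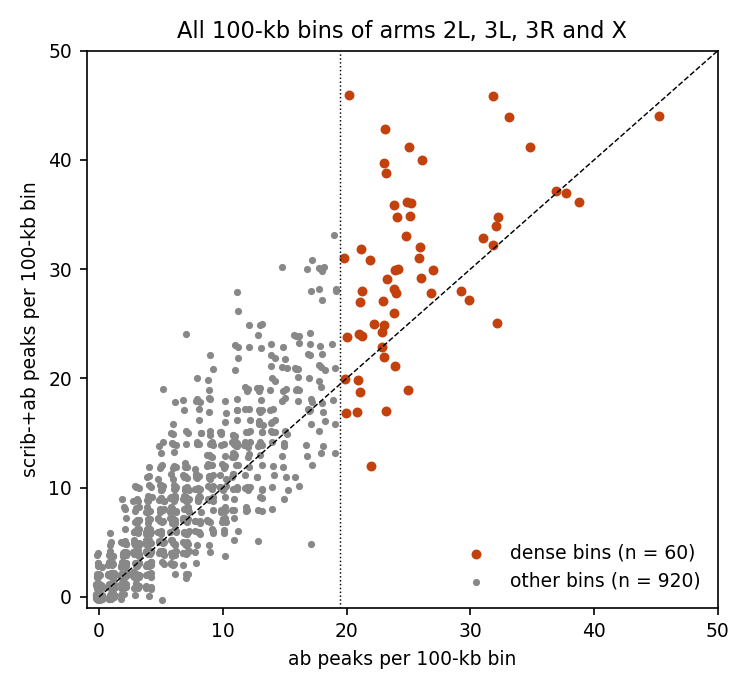
Peaks of the *scrib-*+*ab* list (vertical axis) against peaks of the *ab* list (horizontal axis) in each 100-kb bin of the 4 arms, 1 point a bin with a small random shift so that equal counts can be seen. Dense bins (large points, n = 60) lie right of the dotted line by construction, the dashed line marks equal counts, and 54 of the dense bins also have 20 or more *scrib-*+*ab* peaks.

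As elsewhere, *scrib-*+*ab* peaks outnumbered *ab* peaks in the dense bins. The ratio of *scrib-*+*ab* to *ab* peaks was 1.17 in the dense bins and 1.25 in the other bins. Of the 60 dense bins, 41 had more *scrib-*+*ab* than *ab* peaks, 4 had equal numbers and 15 had fewer. The value depended on the list that chose the bins: when the same number of bins was taken by *scrib-*+*ab* count (62 with ties), the ratio was 1.34. Many of the *scrib-*+*ab* peaks were very short: 22.1% of those in dense bins were under 40 bp, against 2.40% of the *ab* peaks. Without peaks under 40 bp, 56 bins were dense and held 1337 *scrib-*+*ab* peaks, against 1430 *ab* peaks (ratio 0.93), so the surplus of *scrib-*+*ab* peaks did not remain. With peaks of a list within 500 bp joined, 6 bins were dense and the ratio was 0.90.

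**Figure D2:**
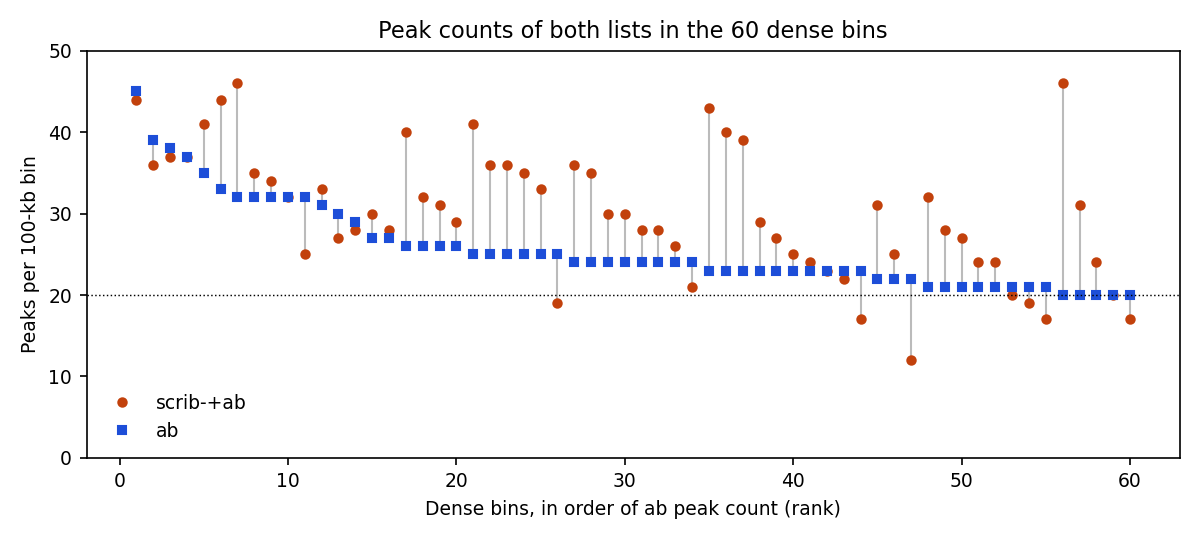
Number of *scrib-*+*ab* peaks (circles) and *ab* peaks (squares) in each of the 60 dense bins, ordered by *ab* count, with a grey line joining the counts of a bin. The dotted line is the limit of 20 *ab* peaks; *scrib-*+*ab* counts scatter on both sides of the *ab* counts, from 12 to 46.

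The densest bin of the *ab* list lay at 17.4 to 17.5 Mb of arm 3R, with 44 *scrib-*+*ab* and 45 *ab* peaks. It was isolated: the bins to its left and right held 3 and 3 *scrib-*+*ab* peaks and 4 and 3 *ab* peaks. Next came the bin at 10.7 Mb of arm 3L, with 36 *scrib-*+*ab* and 39 *ab* peaks between well filled neighbours (23 and 15 *scrib-*+*ab*, 16 and 13 *ab* peaks). The bin at 23 Mb of arm 3R, which contains part of *Ser*, had 37 and 38 peaks, and its neighbours held at most 8 and 6. The bin at 15.1 Mb of arm 3R, which contains *Dl*, had 37 peaks in each list. The bin at 5.2 Mb of arm 2L had 41 *scrib-*+*ab* and 35 *ab* peaks, and that at 12 Mb of arm 3R had 44 and 33. A further 5 bins tied at 32 *ab* peaks. Of these, that at 11.3 Mb of arm 3L had 46 *scrib-*+*ab* peaks, the most of any bin together with that at 9.8 Mb of arm 3R. The bin of *hth* at 6.4 Mb of arm 3R had 35 *scrib-*+*ab* peaks, that at 3.6 Mb of X had 34 and that of *skd* at 21 Mb of arm 3L had 32. The bin at 17.6 Mb of X had 25, fewer than in the *ab* list.

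By ratio, the widest departures from equal counts were outside these 11 bins. At 9.8 Mb of arm 3R, 46 *scrib-*+*ab* peaks stood against 20 *ab* peaks, a ratio of 2.30. At 14.5 Mb of arm 2L, next to the *noc* bin, 43 stood against 23. In the other direction, the bin at 7.3 Mb of arm 2L had 12 *scrib-*+*ab* peaks, against 22 *ab* peaks (ratio 0.55), and that at 2.9 Mb of X had 17 and 23.

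In 5 of the 11 densest bins the longest peaks of both lists overlapped each other. At 12 Mb of arm 3R the longest *scrib-*+*ab* peak (chr3R:12060655-12061737, 1083 bp) met the longest *ab* peak (chr3R:12060700-12061761, 1062 bp), and it was the longest *scrib-*+*ab* peak of all dense bins. These peaks were entry 2 of the *scrib-*+*ab* list and entry 1 of the *ab* list for that arm. In the densest bin, the longest *ab* peak (chr3R:17477105-17477785, 681 bp) met the longest *scrib-*+*ab* peak (chr3R:17477163-17477461, 299 bp). At 10.7 Mb of arm 3L the longest peaks were chr3L:10730032-10730702 (671 bp) in the *scrib-*+*ab* list and chr3L:10729958-10730717 (760 bp) in the *ab* list, and they overlapped. In the other 6 of these bins the longest peaks lay at different sites, as at 5.2 Mb of arm 2L, where the longest *scrib-*+*ab* peak was chr2L:5294783-5295309 (527 bp) and the longest *ab* peak chr2L:5253800-5254628 (829 bp). The longest *ab* peak of all dense bins was chrX:12645422-12647060, 1639 bp, which met 3 *scrib-*+*ab* peaks.

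Counts dropped directly beyond the dense bins in both lists. Bins directly beside a dense bin that were not dense themselves (n = 96) averaged 9.35 *scrib-*+*ab* and 7.95 *ab* peaks, against 30.2 and 25.7 in the dense bins. At 3 bins away the means were 7.21 and 5.76. They did not fall steadily, since bins at 4 away averaged 9.51 and 6.95, the first above that of the adjacent bins. At 6 or more bins away (n = 539) they were 7.20 and 5.74. Of the adjacent bins, 38.5% had 10 or more *ab* peaks, against 22.4% of the bins 6 or more away. By the rule no bin outside a dense one can exceed 19 *ab* peaks.

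**Figure D3:**
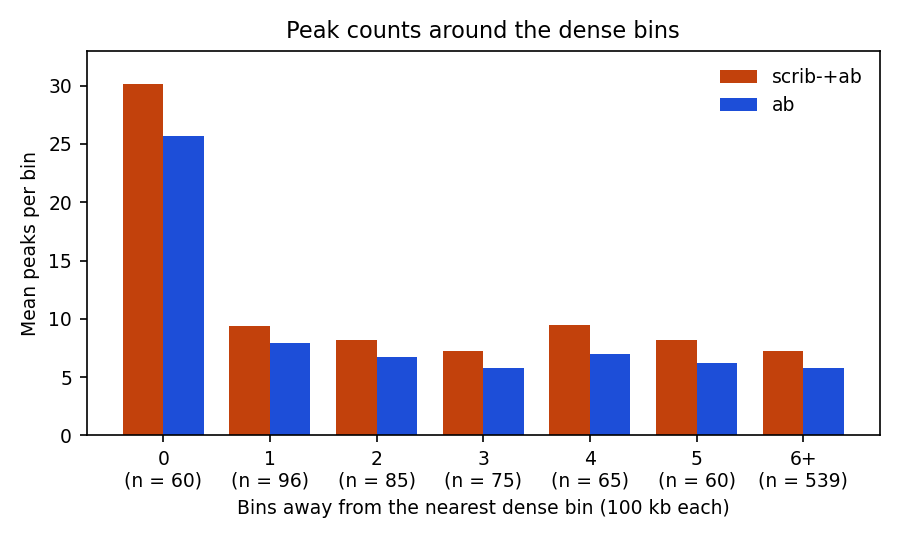
Mean number of *scrib-*+*ab* peaks (left bars) and *ab* peaks (right bars) per 100-kb bin against the distance to the nearest dense bin, with the number of bins in brackets. The means drop to 9.35 and 7.95 in the adjacent bins and then stay between 7.20 and 9.51 (*scrib-*+*ab*) and between 5.74 and 6.95 (*ab*).

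Most dense bins stood alone, and 20 of the 60 formed 9 runs of adjacent dense bins, 7 of 2 bins and 2 of 3. The longest runs were at 18 to 18.3 Mb of arm 3L, with 75 *scrib-*+*ab* and 63 *ab* peaks, and at 9.6 to 9.9 Mb of arm 3R, with 106 and 64. The first of these runs holds the 5′ part of *Eip75B* and the gene *W*. On X the runs lay at 2.9 to 3.1 Mb (44 *scrib-*+*ab* and 46 *ab* peaks), 12.5 to 12.7 Mb (69 and 56) and 17.6 to 17.8 Mb (49 and 53). On arm 3L the pair at 11.2 to 11.4 Mb had 82 and 56 peaks, and the pair at 20.9 to 21.1 Mb had 51 and 57. The pair at 14.4 to 14.6 Mb of arm 2L had 71 and 47, and the pair at 4.7 to 4.9 Mb of arm 3R had 56 and 47. Dense bins made up 4.35% of the bins of arm 2L, 6.10% of arm 3L, 7.53% of arm 3R and 6.22% of X.

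The spacing of peaks inside the dense bins was described by the shortest stretch of a bin with 50% or more of its *ab* peaks. Being the smallest of all such windows, it is under 50 kb for randomly placed peaks too, and no value for random placement was computed. The stretch measured 3.81 to 38.4 kb, with a median of 18.8 kb. The tightest was at 6.8 Mb of X, where 10 of the 20 *ab* peaks and 4 of the 20 *scrib-*+*ab* peaks lay within 3.81 kb. These stretches, placed by the *ab* peaks alone, held a median of 46.1% of the *scrib-*+*ab* peaks of the same bins (range 18.2% to 82.6%). At 11 Mb of arm 2L the stretch of 16.96 kb held 12 of the 23 *ab* peaks and 19 of the 23 *scrib-*+*ab* peaks. The median gap between consecutive peaks was 447 bp (*scrib-*+*ab*) and 581 bp (*ab*) in the dense bins, against 908 and 1396 bp in the other bins, a difference that follows from the higher counts by which the bins were chosen. When peaks of a list within 500 bp of each other were joined, only 6 bins kept 20 or more *ab* entries.

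Peaks of the dense bins met the other list more often than peaks elsewhere, chiefly in the *scrib-*+*ab* list. A peak was counted as shared where it had at least 1 bp in common with a peak of the other list. Of the *scrib-*+*ab* peaks, 1202 of 1809 in dense bins were shared (66.4%, interval 64.2% to 68.6%), against 3959 of 7127 in the other bins (55.5%, 54.4% to 56.7%) and 57.8% on the 4 arms together. Of the *ab* peaks, 963 of 1541 were shared (62.5%, 60.02% to 64.9%), against 3320 of 5685 (58.4%, 57.1% to 59.7%) and 59.3% on the 4 arms. The differences, 10.9 and 4.09 percentage points, depended on which list chose the bins: in the 62 bins taken by *scrib-*+*ab* count they were 5.49 points for the *scrib-*+*ab* peaks and 7.98 points for the *ab* peaks. Close peaks can touch without marking the same site. The *scrib-*+*ab* peaks covered 3.29% of the dense bins and 0.728% of the other bins, and *ab* peaks covered 5.46% and 1.17%; the part of this coverage in the sharing was not tested.

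The bins were chosen for many *ab* peaks, so the shares by arm are a description only. Sharing of *scrib-*+*ab* peaks was higher in dense bins than in other bins on all 4 arms, by least on arm 2L. In dense bins it was 68.7% on arm 3L, 65.7% on arm 3R and 70.5% on X, against 57.7%, 52.7% and 55.3% in the other bins of those arms. On arm 2L it was 59.4% (53.6% to 65.0%) against 57.1%. The *ab* list did not behave alike on all arms: sharing was 64.9% against 55.0% on X, 61.8% against 57.0% on arm 3L and 64.6% against 61.6% on arm 3R, but 55.6% against 60.1% on arm 2L. Single bins varied widely, from 34.8% to 92.3% for the *scrib-*+*ab* peaks and from 26.1% to 85.0% for the *ab* peaks. Sharing of the *scrib-*+*ab* peaks was above the value of the other bins in 52 of the 60 dense bins, and sharing of the *ab* peaks in 38.

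The extremes were bins of known genes as well as unnamed ones. In the bin of the *Enhancer of split* genes at 21.8 Mb of arm 3R, 24 of 26 *scrib-*+*ab* and 19 of 24 *ab* peaks were shared. At 10.7 Mb of arm 3L, 33 of 36 and 22 of 39 were. At the *W* bin 25 of 31 and 17 of 20 were shared. The lowest sharing of *scrib-*+*ab* peaks was at 9.8 Mb of arm 3R, with 16 of 46, and the lowest of *ab* peaks at 11 Mb of arm 2L, with 6 of 23. The *noc* bin was also low, at 11 of 28 and 10 of 24.

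Sharing increased with peak length in dense and other bins alike. Peaks of the dense bins had median lengths of 74 bp (*scrib-*+*ab*) and 157 bp (*ab*), and those of the other bins 67 and 149 bp. In all 60 dense bins the *scrib-*+*ab* median was the shorter, and in 59 the *scrib-*+*ab* peaks covered fewer bases in all, 0.602 times the *ab* total. Sharing of *scrib-*+*ab* peaks in dense bins was 34.3% under 40 bp, 61.2% at 40 to 79 bp, 77.7% at 80 to 149 bp, 95.04% at 150 to 299 bp and 97.1% at 300 bp or more. In the other bins the values were 27.5%, 47.8%, 69.5%, 91.1% and 100%. The gap was widest at 40 to 79 bp, and above 300 bp it was turned round by 3 unshared peaks of 105. For *ab* peaks the intervals of dense and other bins overlapped in each of the 5 length classes. With both parts set to the length make-up of all peaks of a list, the differences were 8.63 points for *scrib-*+*ab* peaks and 2.12 points for *ab* peaks.

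**Figure D4:**
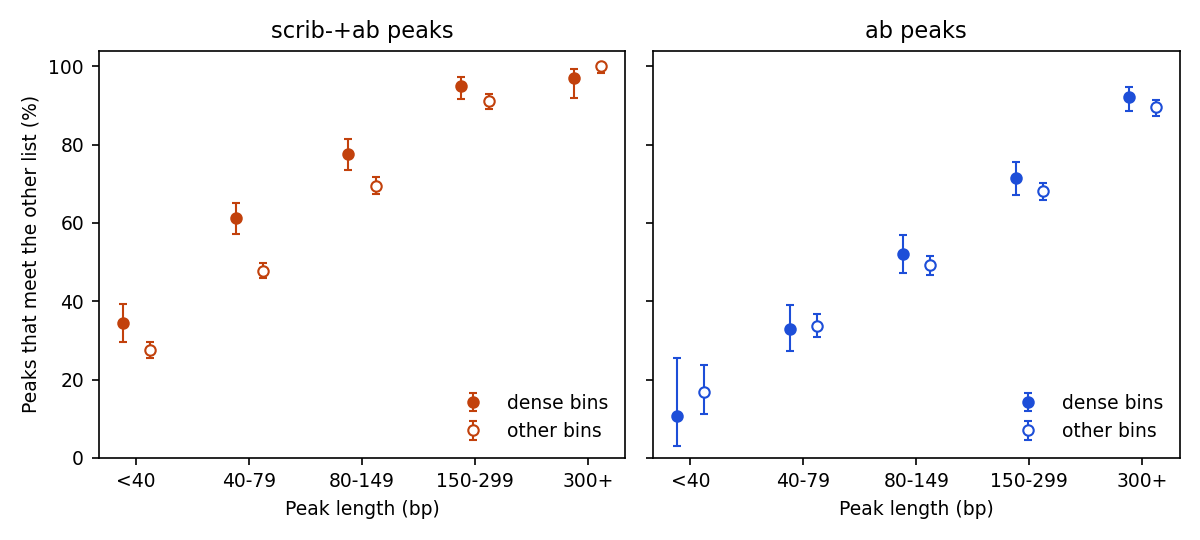
Share of peaks that meet the other list, in percent, against peak length in bp, for *scrib-*+*ab* peaks (left panel) and *ab* peaks (right panel), with exact 95% intervals that cover counting error only. Filled points are dense bins and open points other bins; the *scrib-*+*ab* shares in dense bins are higher by most at 40 to 79 bp (61.2% against 47.8%), and the intervals of the *ab* shares overlap.

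Long peaks made up a larger share of the peaks in dense bins. Peaks of 500 bp or more numbered 26 in the *scrib-*+*ab* list and 121 in the *ab* list, 1.44% and 7.85% of the peaks there, against 0.337% and 3.83% in the other bins. The dense bins thus held 52.0% of the long *scrib-*+*ab* peaks on the 4 arms and 35.7% of the long *ab* peaks, and 25 and 118 of these were shared. Entries in the first 10% of an arm's list made up 12.9% of the *scrib-*+*ab* peaks (11.4% to 14.5%) and 13.6% of the *ab* peaks (11.9% to 15.4%) in dense bins, against 9.23% and 8.99% in the other bins. The meaning of the list order is not stated in the sources used here; long peaks come early in it. An *ab* peak of a dense bin met 2 or more *scrib-*+*ab* peaks in 13.6% of cases, against 10.3% in the other bins, while the converse was rare (0.940% and 0.80%).

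Peaks found in a single list had shorter distances to the other list in the dense bins than elsewhere. Bins chosen for many *ab* peaks must bring an *ab* peak nearer to any *scrib-*+*ab* peak, so these distances are a description of crowded bins, with no value for peaks placed at the same density. The 607 unshared *scrib-*+*ab* peaks had a median distance of 386 bp to the nearest *ab* peak, against 1116 bp in the other bins, and 56.5% were within 500 bp, against 37.2%. For the 578 unshared *ab* peaks the median distance was 495.5 bp, against 891 bp, and 50.2% were within 500 bp, against 40.9%. The unshared peaks of the dense bins were short, with medians of 46 bp (*scrib-*+*ab*) and 103 bp (*ab*), against 94.5 and 210 bp for the shared peaks of the same bins. When a gap of up to 500 bp was allowed, 85.4% of the *scrib-*+*ab* and 81.3% of the *ab* peaks in dense bins had a partner. When an overlap of 50% of both peaks was required, 25.2% and 29.5% did.

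Genes in the dense bins were found through the 59 genes on these arms for which the study drew the peaks along a gene model, called panel genes below. They had been selected for peaks and for expression in these discs, so their number is no independent evidence. The drawn models of 17 of the 59 (28.8%) reached a dense bin, and 14 of the 60 dense bins held such a gene. Peaks were counted in the drawn gene and 500 bp upstream. The drawn models of *skd*, *Dl*, *ex*, *Ser* and *E(var)3-9* reach a panel edge, so their counts cover the drawn part and 500 bp upstream only. The 17 genes had 178 *scrib-*+*ab* and 147 *ab* peaks, of which 122 (68.5%) and 95 (64.6%) were shared. The *scrib-*+*ab* list had more peaks at 8 genes, equal numbers at 8 and fewer at 1.

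**Figure D5:**
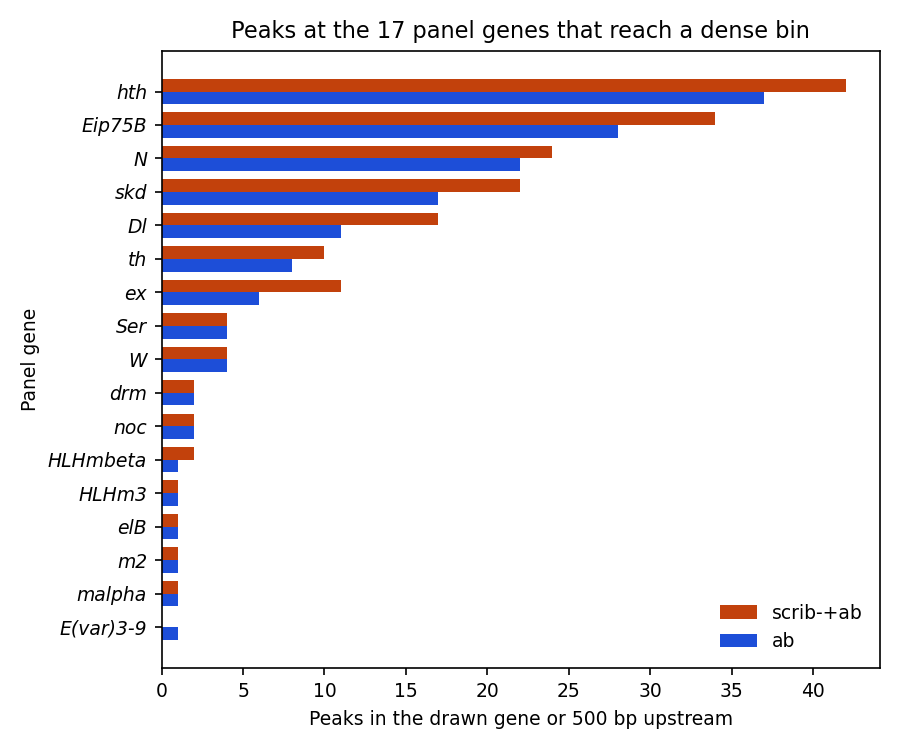
Number of *scrib-*+*ab* peaks (upper bars) and *ab* peaks (lower bars) in the drawn gene model and 500 bp upstream for the 17 panel genes that reach a dense bin. Counts run from 42 and 37 at *hth* to 0 and 1 at *E(var)3-9*, and 4 genes of the *Enhancer of split* region have 1 or 2 peaks each in either list. They are not scaled to the length of the drawn models, which runs from 0.676 kb (*malpha*) to 128.9 kb (*hth*).

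Notch signalling was the panel group with the most members here. The receptor Notch is bound by the ligands Delta and Serrate of a neighbouring cell, its intracellular part is released, and with Su(H) it activates targets such as the *Enhancer of split* genes, which encode basic helix-loop-helix repressors and Bearded-family proteins. Of all 59 panel genes, 17 (28.8%) reached a dense bin. Of the 8 Notch-pathway panel genes, 7 did: *N*, *Dl*, *Ser*, *HLHmbeta*, *malpha*, *m2* and *HLHm3*. The last 4 share a single bin and are not separate cases.

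The receptor gene *N* filled its bin. At 3 to 3.1 Mb of X, 24 of the 27 *scrib-*+*ab* and 22 of the 23 *ab* peaks (95.7%) lay in *N* or the 500 bp upstream. Of these, 14 and 12 were shared. The longest *scrib-*+*ab* peak (chrX:3028569-3028858, 290 bp) was centred 0.191 kb upstream of the drawn start of *N*. The longest *ab* peak (chrX:3056699-3057163, 465 bp) was 28.0 kb after it, inside the gene. The bin to the left was itself dense, with 17 *scrib-*+*ab* and 23 *ab* peaks, while that to the right held 6 and 1.

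Of the ligand genes, *Dl* had many peaks in its drawn part and *Ser* few. Both models are cut at both panel edges, so peaks in any undrawn part of these genes were not counted. *Dl* had 17 *scrib-*+*ab* and 11 *ab* peaks, 45.9% and 29.7% of those in its bin, with 13 and 9 shared. Its longest peaks were chr3R:15136458-15136759 (302 bp) in the *scrib-*+*ab* list and chr3R:15139523-15140176 (654 bp) in the *ab* list, both within the drawn gene. At *Ser*, 4 peaks of each list lay in the drawn part or the 500 bp upstream of it, although its bin was the third densest. By midpoint, 4 *scrib-*+*ab* and 3 *ab* peaks were inside the drawn part. In that bin 33 of 37 *scrib-*+*ab* and 35 of 38 *ab* peaks lay on the 5′ side of the drawn part, beyond the edge of the panel. The stretch with 50% of the *ab* peaks (16.7 kb) began 11.1 kb from that edge. The longest peak of both lists in the bin was nevertheless in *Ser*, at chr3R:23011714-23012135 (422 bp) and chr3R:23011549-23012160 (612 bp). It was the single shared peak counted at the gene.

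The *Enhancer of split* genes are short, and most peaks of their stretch lay outside the 4 drawn genes and the 500 bp upstream of them. The 18.2 kb from *HLHmbeta* to *HLHm3* held 17 of the 26 *scrib-*+*ab* and 14 of the 24 *ab* peaks of the bin. Of the peaks of the bin, 5 *scrib-*+*ab* and 4 *ab* peaks were counted at the 4 genes, where the drawn gene and 500 bp upstream leave little room away from a start. In the RefSeq annotation of Release 6, which was used for gene order only, 3 protein-coding genes lie between these genes, namely *malpha*, *Kaz-m1* and *m2*. *HLHmbeta*, a helix-loop-helix repressor gene, had an *ab* peak of 1025 bp (chr3R:21831523-21832547) centred 0.289 kb upstream of its start, which met 2 *scrib-*+*ab* peaks, the longer of 549 bp (chr3R:21831864-21832412). The Bearded-family gene *malpha* had 1 peak in each list, chr3R:21836381-21836436 (56 bp) and chr3R:21836189-21836636 (448 bp), centred 0.206 and 0.202 kb upstream. Its relative *m2* likewise had 1 in each, chr3R:21843305-21843496 (192 bp) and chr3R:21843276-21843571 (296 bp), centred 0.206 and 0.229 kb upstream. *HLHm3*, which encodes another helix-loop-helix repressor, had a *scrib-*+*ab* peak of 42 bp 0.505 kb upstream and an *ab* peak of 247 bp at its start, and these did not overlap each other. The longest *ab* peak of the bin (chr3R:21827913-21829003, 1091 bp) lay outside the drawn genes and was the longest *ab* peak of the dense bins after that on X.

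Of the 9 eye fate and 12 antenna and appendage fate panel genes, 3 (*hth*, *elB* and *noc*) and 2 (*hth* and *drm*) reached dense bins. *hth* encodes a homeodomain partner of Extradenticle that keeps eye progenitors undifferentiated and helps to specify the antenna. It had the most peaks of the panel genes in dense bins, 42 in the *scrib-*+*ab* and 37 in the *ab* list, with 26 and 22 shared. Its drawn model was also the longest, 128.9 kb, against 37.4 kb for *N* and 12.3 kb for *th*. The counts were not set against gene length. Of these, 29 and 26 lay in the dense bin at 6.4 Mb of arm 3R, 82.9% and 81.2% of its peaks. The remainder filled the adjacent bin, which was not dense: 13 of its 14 *scrib-*+*ab* and 11 of its 12 *ab* peaks were in *hth*. The longest peaks of both lists were at the same position inside the gene, 21.6 and 21.7 kb after the drawn start, chr3R:6442779-6443095 (317 bp) and chr3R:6442565-6443129 (565 bp).

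The related zinc finger genes *elB* and *noc*, which act together in eye, leg and tracheal development, lie at the ends of a dense bin at 14.4 Mb of arm 2L. Few peaks were in the genes or the 500 bp upstream: 1 in each list at *elB* and 2 in each at *noc*. The longest of these sat at the starts. At *elB* the peaks chr2L:14409546-14409584 (39 bp) and chr2L:14409435-14409630 (196 bp) covered the drawn start, which was read at 25.5 bp per pixel. The 39-bp peak may thus lie beside it. At *noc* the peaks chr2L:14490648-14490869 (222 bp) and chr2L:14490431-14491059 (629 bp) were centred 0.104 and 0.118 kb upstream. The interval between the genes, 81.3 kb, held 24 of the 28 *scrib-*+*ab* and 20 of the 24 *ab* peaks of the bin. In Release 6, 3 protein-coding genes lie between *elB* and *noc*, namely *Pburs*, a bursicon hormone subunit gene, *Cpr35B*, a cuticle protein gene, and *CG15283*. *drm*, an odd-skipped family zinc finger gene active in the disc margin, was similar, with 2 peaks of each list in the gene or the 500 bp upstream. At 3.5 Mb of arm 2L, 35 of the 39 *scrib-*+*ab* and 20 of the 23 *ab* peaks lay on its 3′ side. Its longest peaks were chr2L:3538883-3539019 (137 bp) and chr2L:3538876-3539056 (181 bp), centred 0.302 and 0.287 kb upstream of the start.

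Of the 11 ecdysone-response panel genes only *Eip75B*, which encodes a nuclear receptor induced by ecdysone, reached a dense bin. It had 34 *scrib-*+*ab* and 28 *ab* peaks, with 21 and 17 shared. In the dense bin at 18 Mb of arm 3L, 21 of the 25 *scrib-*+*ab* (84.0%) and 19 of the 22 *ab* peaks (86.4%) were in the gene. In the bin to the left, 13 of 16 and 9 of 13 were. The longest peaks were far apart within the gene, chr3L:17981305-17981581 (277 bp) in the *scrib-*+*ab* list and chr3L:18030865-18031293 (429 bp) in the *ab* list, 76.3 and 26.7 kb after the drawn start. The first of these lay in the bin to the left, which was not dense. *hth*, *Eip75B* and *N* were the 3 panel genes that held over 80% of the peaks of a dense bin in both lists.

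Genes of growth and cell death in dense bins were *ex*, *th* and *W*, 3 of the 8 in that group. *ex* (*expanded*) encodes an upstream activator of the Hippo pathway, which limits the activity of the transcriptional coactivator Yorkie. The gene is also a target of Yorkie. *ex* had 11 *scrib-*+*ab* and 6 *ab* peaks, with 9 and 6 shared. The longest *ab* peak in it (chr2L:438867-439947, 1081 bp, 8.19 kb after the start) met 2 *scrib-*+*ab* peaks. The longest *scrib-*+*ab* peak was chr2L:441953-442391 (439 bp). *th* encodes the caspase inhibitor Diap1. It had 10 and 8 peaks, with 9 and 6 shared, and its longest were chr3L:16035894-16036121 (228 bp) and chr3L:16036397-16037028 (632 bp), the second meeting 3 *scrib-*+*ab* peaks. *W*, also known as *hid*, encodes an inhibitor of Diap1 that promotes cell death. It had 4 peaks of each list in the gene or the 500 bp upstream, with 2 and 2 shared. By midpoint, 1 *scrib-*+*ab* and 2 *ab* peaks lay inside the drawn gene. The 10 kb before the drawn start, which include those 500 bp, held 17 of the 31 *scrib-*+*ab* and 10 of the 20 *ab* peaks of the bin. Among them was the longest *ab* peak counted at the gene (chr3L:18179042-18179423, 382 bp). The longest *scrib-*+*ab* peak counted at *W* (chr3L:18175349-18175652, 304 bp) lay within the gene and met no *ab* peak.

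Of the 6 Polycomb and chromatin panel genes, *skd* and *E(var)3-9* reached dense bins. *skd* encodes the Mediator kinase-module subunit Med13. It had 22 *scrib-*+*ab* and 17 *ab* peaks, with 18 and 14 shared, all in the right one of a pair of adjacent dense bins, and its longest were chr3L:21007517-21007798 (282 bp) and chr3L:21001069-21001625 (557 bp). *E(var)3-9*, a modifier of position-effect variegation, had 0 *scrib-*+*ab* peaks and 1 *ab* peak of 39 bp in its drawn part. Its model was cut at both panel edges, so peaks in any undrawn part of the gene were not counted. In its bin, 22 of the 24 *scrib-*+*ab* and 16 of the 21 *ab* peaks lay on the 5′ side of the drawn part. None of the 8 BTB-domain panel genes on these arms reached a dense bin.

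Alignments of array probe sets were taken from the study's list of deregulated genes with multiple probe sets. They located 144 genes on the 4 arms, a set already selected by expression. Of these genes, 9 reached a dense bin, beside 6.12% of all bins that were dense. Apart from the panel genes *Eip75B* and *elB*, they placed 7 further genes in dense bins. Counts here are over the span of the probe sets only. *pyd*, which encodes the ZO-1 relative Polychaetoid of the adherens junction, had 33 *scrib-*+*ab* and 20 *ab* peaks, with 19 and 15 shared. Of these, 19 of the 32 and 13 of the 26 peaks of the dense bin at 4.7 Mb of arm 3R were in *pyd*. *CG33967*, named *kibra* in Release 6, encodes another upstream activator of the Hippo pathway. It had 14 and 7 peaks, with 7 and 6 shared, of the 31 and 22 in its bin at 10.5 Mb of arm 3R, and its longest were chr3R:10541967-10542207 (241 bp) and chr3R:10541895-10542402 (508 bp). *CG12250* (*ymp*) had 1 and 3. *Fmr1*, *oaf* and *CG10874* had 0 in both lists although their bins held 21 to 29 peaks in either list, and the 3 and 5 peaks in *Msp-300* were outside the dense bin that its span enters.

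Bins on either side of the limit had overlapping *scrib-*+*ab* counts. The 8 bins with 19 *ab* peaks had 13 to 33 *scrib-*+*ab* peaks (median 22) and the 18 bins with 18 had 13 to 30 (median 21). The 5 bins with 20 *ab* peaks had 17 to 46 *scrib-*+*ab* peaks (median 24) and the 8 bins with 21 had 17 to 32 (median 24). With bins classed by *ab* count, the ratio of *scrib-*+*ab* to *ab* peaks was 1.48 in bins with 0 to 4 *ab* peaks, 1.30 with 5 to 9, 1.17 with 10 to 14, 1.17 with 15 to 19 and 1.17 in the dense bins. Sharing of *scrib-*+*ab* peaks was 44.3%, 53.0%, 60.3%, 61.2% and 66.4% in the same order, and that of *ab* peaks 56.4%, 58.3%, 58.5%, 59.6% and 62.5%. The fall of the ratio rested on the list that classed the bins. With bins classed by *scrib-*+*ab* count at the same limits, the ratio ran the other way, from low to high counts 0.94, 1.12, 1.23, 1.32 and 1.36. Sharing of *ab* peaks was then 43.1%, 55.6%, 58.1%, 62.6% and 65.5%, and that of *scrib-*+*ab* peaks 51.1%, 55.7%, 56.1%, 57.0% and 61.6%.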

How the data were processed

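The authors aligned reads to dm3 (Berkeley Release 5) with Bowtie at default settings and called peaks against normalised input with PeakSeq (READLENGTH 40, MAXGAP 40, MINFDR 0.01, PVALTHRESH 0.0001). The deposited BED files give peak start and end positions and a constant score of 1 per peak, per genotype; no peak heights or read counts were used here.

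Overlaps, bin counts and exact 95% intervals were computed in Python 3.11.15 with pandas 2.3.3 and SciPy 1.17.1 and tested on simulated peak lists. Printed positions are 1-based. With 1 library a genotype nothing was tested. The dense bins, gene lists and alternatives were chosen with earlier results of these data known. All dense bins were counted, and the 10 densest with ties, every run and every panel gene in a dense bin were named. The longest peaks are printed for a part of these bins and genes only. Other single bins and probe-set genes were named after their values were seen. No dm3 annotation or genome was used. Panel genes were placed from the axis and gene model drawn in the study's supplementary panels, and only positions were read from them. The 17 panels had a median of 17.9 bp per pixel (range 1.79 to 127), and 5 of the 17 models reach a panel edge. RefSeq Release 6 served for names and gene order.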

Additional observations from a re-analysis of the deposited data

How the results depend on the processing

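The 11 values that answer the comparisons were computed again under 12 other settings, which gave 109 values, 68 of them close to those reported. The surplus of *scrib-*+*ab* over *ab* peaks (ratio 1.17) turned to a deficit under 2 settings, at 0.93 without peaks under 40 bp and 0.90 with peaks within 500 bp joined. No paired analysis was possible because each genotype has 1 library and no result comes from a test. With 15 or more *ab* peaks as the limit there were 136 bins with 3299 *scrib-*+*ab* and 2817 *ab* peaks and 27 panel genes, and 64.1% of *scrib-*+*ab* peaks were shared. With 25 or more there were 26 bins with 889 and 785 peaks and 4 panel genes, and 69.1% were shared. With 50-kb bins and a limit of 10 there were 193 bins with 3122 and 2711 peaks and 26 panel genes, and the difference in *scrib-*+*ab* sharing was 13.7 points. With 200-kb bins and a limit of 40 there were 18 bins with 1021 and 831 peaks. Bins taken by *scrib-*+*ab* count gave shared shares of 62.0% (*scrib-*+*ab*) and 65.6% (*ab*) and differences of 5.49 and 7.98 points. Joining peaks within 500 bp left 6 bins with 114 and 126 peaks and 1 panel gene, median lengths of 240 and 283 bp, shared shares of 80.7% and 66.7% and differences of 22.6 and 1.21 points. Without peaks under 40 bp the shares were 75.3% and 58.2%. An overlap of 50% of both peaks gave 25.2% and 29.5%, with a *scrib-*+*ab* difference of 2.88 points, while 85.4% and 81.3% had a partner within 500 bp. Bins starting at 50 kb and bins by peak start moved no value beyond these limits (1.5 times for counts, lengths and ratios, the counting interval for shares). In the alternatives, panel genes outside the dense bins were placed by the whole panel. As no read counts or peak heights were used, a peak missing from a list cannot be told from a weaker one.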
